A study of Mus musculus with 4 samples.

Results

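Described here are 9 genes of osteoblast differentiation, Runx2, Sp7, Alpl, Ibsp, Bglap, Bglap2, Spp1, Dmp1 and Phex, out of the 32285 genes in the count matrices. They were taken by symbol from a list and not by a rule on their values. The list was chosen with earlier results of these data known. All 9 were present in all 4 matrices. Their unique molecular identifiers (UMIs, each standing for 1 captured RNA molecule) were followed in osteoblast-like cells, in the other mesenchymal cells (fibroblast-like and tenocyte-like) and, more briefly, in every other class of cell.

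The samples were 10x single-cell RNA libraries from the digits of wild-type FVB/NJ mice, 8 weeks old by the labels. One library came from unamputated, homeostatic tissue, and 1 each from tissue taken 12, 17 and 28 days post-amputation (dpa) through the middle of the P2 bone, the middle phalanx, a level that the labels call non-regenerative. Cells were freed by trypsin and collagenase I, cleared of red blood cells and sorted for live ones with propidium iodide. With 1 library per group there is no replicate error, so no test of a difference between groups was possible: differences below are between libraries, and their 95% intervals (exact Poisson for counts, Clopper-Pearson for shares) cover counting error only.

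Bone is laid down by osteoblasts, which arise from mesenchymal progenitors under the transcription factors Runx2 and Sp7 (osterix). Alpl, tissue-nonspecific alkaline phosphatase, frees phosphate for mineral, and Ibsp (bone sialoprotein), Spp1 (osteopontin) and the osteocalcins Bglap and Bglap2 are proteins of the mineralized matrix. Osteoblasts that become buried in matrix turn into osteocytes, and Dmp1 and Phex act in those cells in the control of mineralization and of phosphate.

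The matrices held 92313847 to 197140774 UMIs in 8813 to 16045 barcodes, and 34947 cells were kept, from 6510 to 10399 per library. Pairs of libraries shared 19 to 87 cell barcodes. The median depth of the kept cells was 11600 UMIs in the unamputated library and 9543.5, 8501 and 6657 at 12, 17 and 28 dpa, so shares of cells with a UMI are given after thinning each cell to 2000 UMIs. Each library was labelled as pooled male and female, but in the library labelled 12 dpa Y-linked genes summed to 0.228 CPM (UMIs per 1000000) and Xist reached 458 CPM, while the other 3 libraries had 244 to 350 CPM of Y-linked genes and 0.0762 to 0.154 CPM of Xist. So no library showed both, and all 4 go against that label. The library labelled 12 dpa stands apart from the other 3 in these genes, and in any difference between it and them this and the time cannot be told apart. The comparisons of 17 and 28 dpa with the unamputated library do not use it.

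Osteoblast-like cells were 1915 cells in 1 cluster, made without the 9 genes and named from 10 other markers, among them Pth1r, Ifitm5, Dlx5 and Smpd3. All 10 markers had UMIs in the unamputated, 17 and 28 dpa cells, and their summed level was 1114 CPM, 1069 CPM and 1295 CPM. At 12 dpa Mepe was at 0 and the sum was 497 CPM. The class held 492 of 10399 unamputated cells (4.73%, 95% interval 4.33 to 5.16), 63 of 6510 cells at 12 dpa (0.968%, 0.744 to 1.24), 794 of 7919 at 17 dpa (10.0%, 9.37 to 10.7) and 566 of 10119 at 28 dpa (5.59%, 5.15 to 6.06). The lowest share was thus at 12 dpa and the highest at 17 dpa. These are shares of the cells that were freed and sorted, not of the tissue. Other mesenchymal cells numbered 1415, 2123, 2194 and 2814 in the same order. The tenocyte-like cells among them include 1 cluster led by cell-cycle genes such as Birc5 and Cdk1.

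The 12 dpa class differs in make-up. Of its 63 cells, 41 fell in a sub-cluster led by Clec3b and Sfrp2, where Clec3b and Col14a1 among the leading genes belong to the fibroblast marker list. The chondrocyte marker list summed to 2269 CPM in the 12 dpa cells, with 9 of 10 markers present and Col10a1 at 0, against 224 to 268 CPM in the other libraries. Its part in the 12 dpa values was not tested, and those values describe 63 cells with 838541 UMIs.

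Across the matrices as deposited, before any cell was removed, Ibsp amounted to 259 CPM in the unamputated library and to 73.3, 889.7 and 475 CPM at 12, 17 and 28 dpa. Spp1 followed the same order of libraries, with 585, 82.5, 1452 and 1210.3 CPM. For Bglap the values were 39.0, 0.477, 162 and 135 CPM. In sums over a whole library, fewer cells of a type and less RNA per cell cannot be told apart. Of the UMIs in kept cells, osteoblast-like cells held 97.5% of Ibsp, 98.5% of Bglap, 98.2% of Bglap2, 92.2% of Sp7 and 82.9% of Spp1 in the unamputated library. For Runx2 that share was 56.7%, and for Dmp1 25.7%. At 12 dpa osteoblast-like cells held 5.47% of Runx2 and 2.0% of Spp1, so at that time most UMIs of both genes lay in other classes.

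Runx2, the transcription factor that commits cells to the osteoblast lineage, stood at 1786 CPM (95% interval 1759.8 to 1812) in unamputated osteoblast-like cells, 642 CPM (589 to 698) at 12 dpa, 1805 CPM (1777 to 1832) at 17 dpa and 1505 CPM (1467 to 1544) at 28 dpa. 3 of the libraries lie close together and 12 dpa is low. As a log2 ratio to the unamputated cells, computed with 1 CPM added to each value, this is −1.48 at 12 dpa, 0.01 at 17 dpa and −0.25 at 28 dpa. After thinning, 83.4%, 61.9%, 81.2% and 80.6% of osteoblast-like cells had a Runx2 UMI. In vascular endothelial-like cells, the class with the lowest median of Runx2, the shares were 1.45%, 1.36%, 1.39% and 1.32%. Other mesenchymal cells had 31.5%, 30.3%, 19.2% and 14.1%, and T or NK-like cells 56.6%, 56.2%, 37.4% and 19.3%. At 12 dpa the interval of T or NK-like cells, 47.5 to 64.7%, overlaps that of osteoblast-like cells, 48.8 to 73.9%.

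Sp7, which acts downstream of Runx2, was far less abundant in counts, at 77.8 CPM (72.4 to 83.5), 21.5 CPM (12.7 to 33.9), 70.8 CPM (65.5 to 76.4) and 79.3 CPM (70.8 to 88.6) from the unamputated to the 28 dpa library. The 12 dpa value rests on 18 UMIs. Its log2 ratios to unamputated cells were −1.81, −0.13 and 0.03, so 17 and 28 dpa lie within counting error of the unamputated level and 12 dpa lies below it. Within the sub-cluster led by Clec3b and Sfrp2 the 12 dpa ratio turned to 0.89, on 3 UMIs against 7.

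Alpl varied least of the matrix and mineral genes, with 619 CPM (603 to 634), 445 CPM (401 to 492), 489.6 CPM (476 to 504) and 515 CPM (492 to 537). The unamputated cells were highest, and no library differed from them by 2-fold (log2 ratios −0.47, −0.34 and −0.27). The share of thinned cells with an Alpl UMI was 60.2%, 38.1%, 50.3% and 54.3%.

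Ibsp, a matrix sialoprotein that binds mineral, was at 2718 CPM (2685 to 2750.1) in unamputated osteoblast-like cells, 5016 CPM (4865 to 5169.8) at 12 dpa, 7797 CPM (7741 to 7854) at 17 dpa and 9959 CPM (9861 to 10058) at 28 dpa. The unamputated library was lowest. The 12 dpa value rests on few cells: 1 cell held 68.2% of its 4206 UMIs and 5 cells held 99.0%, and without the top cell of each library the log2 ratio of 12 dpa to unamputated turned from 0.88 to −0.55. At 17 and 28 dpa the ratios were 1.52 and 1.87, and the top cell held 3.34% and 4.70% of the UMIs. Thinned cells with an Ibsp UMI made up 31.6% of the class in the unamputated library, 14.3% at 12 dpa, 38.8% at 17 dpa and 57.6% at 28 dpa.

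Spp1, a phosphoprotein of bone matrix that many other cells also make, was at 3851 CPM (3813 to 3889.96), 151 CPM (126 to 180.2), 11424 CPM (11356 to 11493) and 20877 CPM (20734.5 to 21019.9). The 12 dpa cells were lowest and the 28 dpa cells highest, with log2 ratios to unamputated of −4.66, 1.57 and 2.44. Within the sub-cluster led by Clec3b and Sfrp2 the 12 dpa ratio turned to 0.36 (37.6 against 29.0 CPM). At 12 dpa 67 of the 127 UMIs came from 1 cell. The share of thinned cells with an Spp1 UMI there was 14.3% (6.75 to 25.4), against 0.543% (0.148 to 1.39) of vascular endothelial-like cells and 13.3% of macrophage-like cells, which themselves had 201 CPM of Spp1. Median depths were 12306, 7226 and 7677 UMIs in these 3 classes. At 17 and 28 dpa the shares were 39.6% and 50.1% in osteoblast-like cells, and 5.58% and 6.04% in vascular endothelial-like cells.

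Bglap encodes osteocalcin, a late product of mature osteoblasts. It stood at 648 CPM (632 to 664), 33.4 CPM (22.2 to 48.3), 1527 CPM (1502 to 1552) and 2908 CPM (2855 to 2961). Its near copy Bglap2 stood at 473 CPM (459 to 486), 10.7 CPM (4.91 to 20.4), 981 CPM (961 to 1001) and 2268 CPM (2222 to 2316). Both genes were lowest at 12 dpa and highest at 28 dpa, and at 12 dpa 27 of the 28 Bglap UMIs came from 1 cell. The log2 ratios to unamputated cells were −4.24, 1.24 and 2.16 for Bglap. For Bglap2 they were −5.34, 1.05 and 2.26.

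Reads of the osteocalcin copies can be hard to assign. In the last 300 bases of their transcripts, which a 3′ library reads, Bglap and Bglap2 share 201 of 251 words of 50 bases (80.1%), and Bglap3 shares 19.1% of these words with Bglap. How UMIs were divided between the copies is therefore uncertain, and the sum of Bglap and Bglap2 is the safer value: 1120.4 CPM (1099.8 to 1141) in unamputated cells, 44.1 CPM (31.1 to 60.8) at 12 dpa, 2508 CPM (2476 to 2540.2) at 17 dpa and 5176 CPM (5105 to 5248) at 28 dpa. The sum keeps the order of the libraries seen for each copy. Bglap made up 57.8%, 75.7%, 60.9% and 56.2% of it. Bglap3 was at 19.8, 0, 100.3 and 201 CPM.

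Dmp1, a matrix phosphoprotein of osteocytes, was at 45.2 CPM (41.1 to 49.5) in unamputated osteoblast-like cells, 191 CPM (182 to 200.1) at 17 dpa and 183 CPM (169.7 to 197) at 28 dpa. No Dmp1 UMI was found among the 838541 UMIs of the 12 dpa cells, which allows up to 3.58 CPM (3 counts), at least 12.6-fold lower than in the unamputated library. The log2 ratios at 17 and 28 dpa were 2.06 and 1.99. Few cells carried the gene: 3.48% (2.04 to 5.52), 8.02% (6.21 to 10.1) and 11.3% (8.80 to 14.3) of thinned cells in those 3 libraries, and 0 of 63 at 12 dpa (0 to 5.69), a limit on cells with a UMI at this depth and not on cells that express the gene.

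Phex, an X-linked endopeptidase gene of osteoblasts and osteocytes, was at 47.7 CPM (43.6 to 52.2), 7.16 CPM (2.63 to 15.6), 72.5 CPM (67.2 to 78.2) and 58.8 CPM (51.5 to 66.9). All 6 UMIs at 12 dpa came from 1 cell. The log2 ratios were −2.58, 0.59 and 0.29, so 17 and 28 dpa lie within 2-fold of unamputated and 12 dpa lies below.

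**Figure D1:**
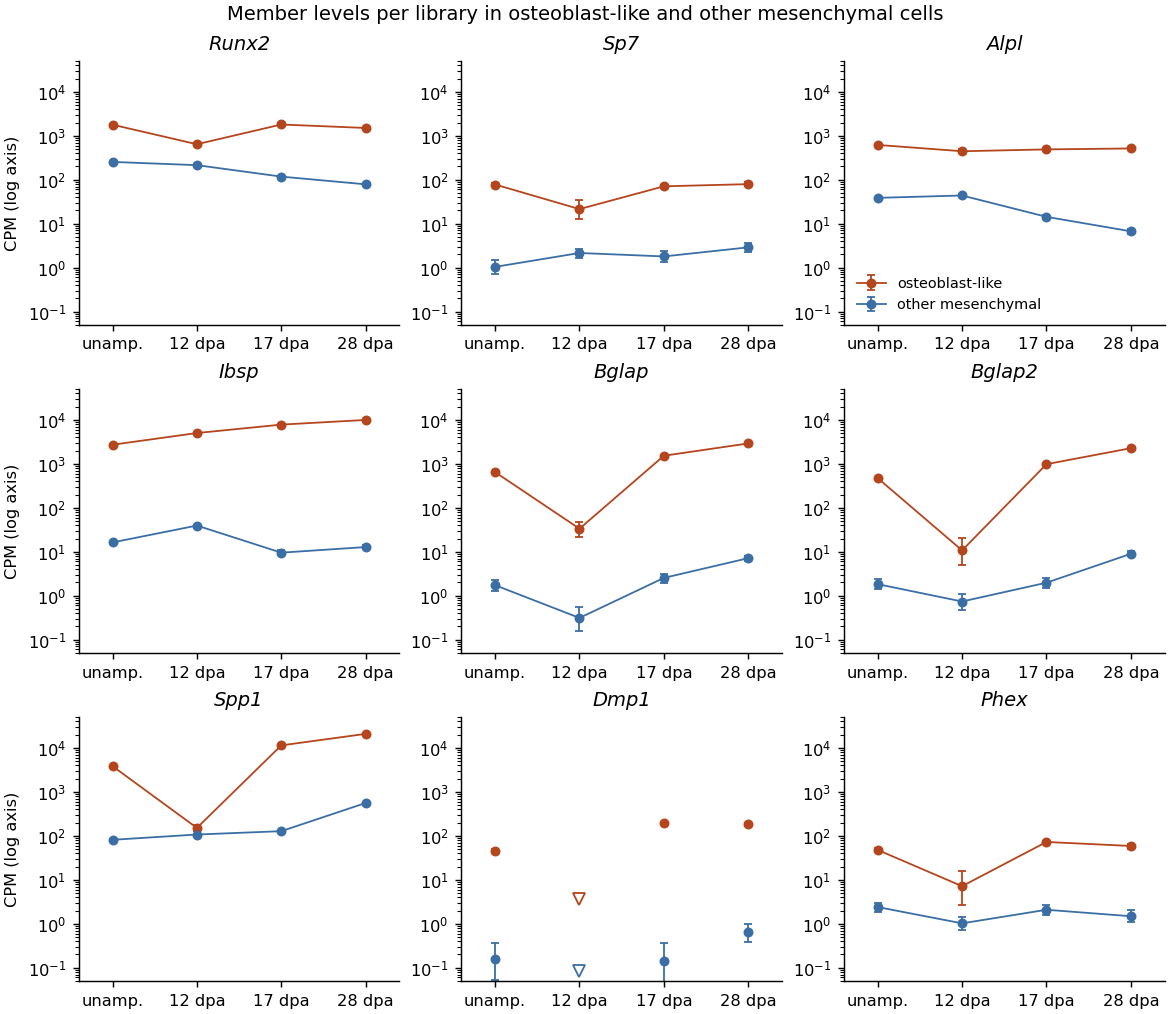
Level of each of the 9 genes in the 4 libraries (CPM of UMIs summed over cells, log axis) in osteoblast-like cells (red) and other mesenchymal cells (blue); bars are exact 95% Poisson intervals, and open triangles mark a count of 0 drawn at the limit of 3 counts. Runx2, Sp7 and Alpl in osteoblast-like cells have like levels in the unamputated, 17 and 28 dpa libraries, while Ibsp, Bglap, Bglap2, Spp1 and Dmp1 are higher at 17 and 28 dpa than in the unamputated library.

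Counted together, a gene was taken as past 2-fold when it reached 5 CPM in the higher library and its log2 ratio was at least 1 in size. At 12 dpa 7 of the 9 genes were past 2-fold lower in osteoblast-like cells (Runx2, Sp7, Bglap, Bglap2, Spp1, Dmp1 and Phex) and 0 higher, where 9.21% of 11004 genes were lower and 3.14% higher. Their median log2 ratio was −2.58, against −0.15 over those genes. Within the sub-cluster led by Clec3b and Sfrp2, which held 65.1% of the class at 12 dpa and 25.2% in the unamputated library, 3 of 9 were past 2-fold lower (Bglap, Bglap2 and Phex) and 1 higher (Ibsp), where 11% of 10892 genes were lower and 5.11% higher. Phex there rests on 17 UMIs against 0 (7.58 CPM against at most 8.15) and Ibsp on 3 against 5, so the intervals of both overlap between the libraries. Runx2 in those cells was at 437 CPM against 630 CPM, within 2-fold, and their median log2 ratio was −0.17. At 17 dpa 5 of 9 were past 2-fold higher (Ibsp, Bglap, Bglap2, Spp1 and Dmp1) and 0 lower, where 1.53% of 10950 genes were higher and 2.97% lower, and the medians were 1.05 and −0.12. At 28 dpa the same 5 genes were past 2-fold higher and 0 lower, where 3% of 11031 genes were higher and 6.78% lower, and the medians were 1.87 and −0.23. All 3 comparisons share the unamputated library, so a value particular to that library enters each. Between the 2 later libraries, which do not use it, Bglap2 alone was past 2-fold (log2 ratio 1.21 higher at 28 dpa), where 1.43% of 10783 genes were higher and 2.06% lower.

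Marker lists of other cells also differed between the libraries, in different orders. In osteoblast-like cells the 9 fibroblast markers, all present in each library, summed to 6351, 5851, 9432 and 13890 CPM from the unamputated to the 28 dpa library. The 8 keratinocyte markers, also all present, summed to 109, 162, 118 and 432 CPM. The 6 joint lining markers summed to 71.1, 227, 159 and 232 CPM, with Tspan15 at 0 at 12 and 28 dpa. The 8 neutrophil markers summed to 314, 0, 107 and 5.32 CPM. For the 8 tenocyte markers the sums were 1016, 1615, 1169 and 1155 CPM, with Chodl at 0 at 12 dpa. For the 5 adipocyte markers, of which Cidec was at 0 in each library, they were 130, 39.4, 54.3 and 55.3 CPM. The part of these lists in the counts was not tested. Few cells set the unamputated level of some genes: 5 cells held 65.0% of Dmp1 UMIs and 52.7% of Bglap UMIs there. Without the top cell of each library the log2 ratios at 17 and 28 dpa were 2.18 and 2.13 for Dmp1, and 1.47 and 2.3 for Bglap. With equal weight to each cell, 3 of 9 genes were past 2-fold higher at 17 dpa, where 1.38% of all genes were, and Bglap and Bglap2, at 0.69 and 0.60, were not.

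The values at 17 and 28 dpa depend on how doublets were handled. In the unamputated library, barcodes marked as doublets held 59.0% of Spp1 UMIs, 44.4% of Ibsp and 34.1% of Dmp1, but 10.5% of Bglap. At 17 dpa the doublet shares were 18.4% for Spp1 and 13.4% for Ibsp, and at 28 dpa 21.0% and 20.4%. With no doublets removed, 3 of 9 genes were past 2-fold higher at 17 dpa (Bglap 1.29, Bglap2 1.14 and Dmp1 1.08 as log2 ratios), while Ibsp at 0.97 and Spp1 at 0.56 were not, and 1.24% of all genes were higher. At 28 dpa 4 were, with Ibsp at 1.37 and Spp1 at 1.40, and Dmp1 at 0.96 was not, where 3.44% of all genes were higher. Whether the marked barcodes are true doublets was not tested.

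Clustering the osteoblast-like cells alone, again without the 9 genes, gave 9 sub-clusters, which are called here by their 2 leading genes. The one led by Car3 and Ifitm5, 268 cells, held the highest levels of 7 of the 9 genes over all libraries summed: 21872 CPM of Ibsp, 47169 CPM of Spp1, 7391 CPM of Bglap, 3743 CPM of Bglap2, 856 CPM of Dmp1, 319 CPM of Phex and 129 CPM of Sp7. For Sp7 the next sub-cluster, led by Hist1h1b and Mki67, was at 127 CPM, within counting error. Ifitm5 and Smpd3, both among its leading genes, belong to the osteoblast marker list. This sub-cluster held 92.8% of the osteoblast-like Dmp1 UMIs at 17 dpa and 90.6% at 28 dpa. For Phex these shares were 80.1% and 93.5%, and for Spp1 65.6% and 69.7%.

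Its share of osteoblast-like cells was 5.28% in the unamputated library (26 cells, 95% interval 3.48 to 7.65), 0 of 63 at 12 dpa (0 to 5.69, which overlaps the unamputated interval), 12.0% at 17 dpa (9.79 to 14.4) and 26.0% at 28 dpa (22.4 to 29.8). Within it the log2 ratios of Ibsp, Spp1, Bglap, Bglap2 and Dmp1 to unamputated were smaller than in the class as a whole at both times, while those of Sp7 and Alpl were larger in size (−0.29 and −0.47 for Sp7, −0.41 and −0.39 for Alpl). Bglap was at 7271 CPM in unamputated cells, 7463 CPM at 17 dpa and 7351 CPM at 28 dpa, log2 ratios of 0.04 and 0.02, against 1.24 and 2.16 over the whole class. Ibsp was at 14798, 24364 and 21799 CPM (log2 ratios 0.72 and 0.56). For Spp1 the values were 27976, 49142 and 53332 CPM (0.81 and 0.93).

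Dmp1 in these cells was at 514, 1162 and 607 CPM, and at 17 dpa it alone of the 9 genes was past 2-fold higher than unamputated (log2 ratio 1.18), where 8.75% of 10679 genes were higher and 12.1% lower. At 28 dpa 0 of 9 were past 2-fold in either direction, where 10.6% of 10841 genes were higher and 14.1% lower. Phex was at 394, 381 and 202 CPM (−0.05 and −0.96), so at 28 dpa it lay farther from unamputated than in the class as a whole. The unamputated values rest on 26 cells, and a sum over few cells carries cell-to-cell spread that the counting intervals do not cover.

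**Figure D2:**
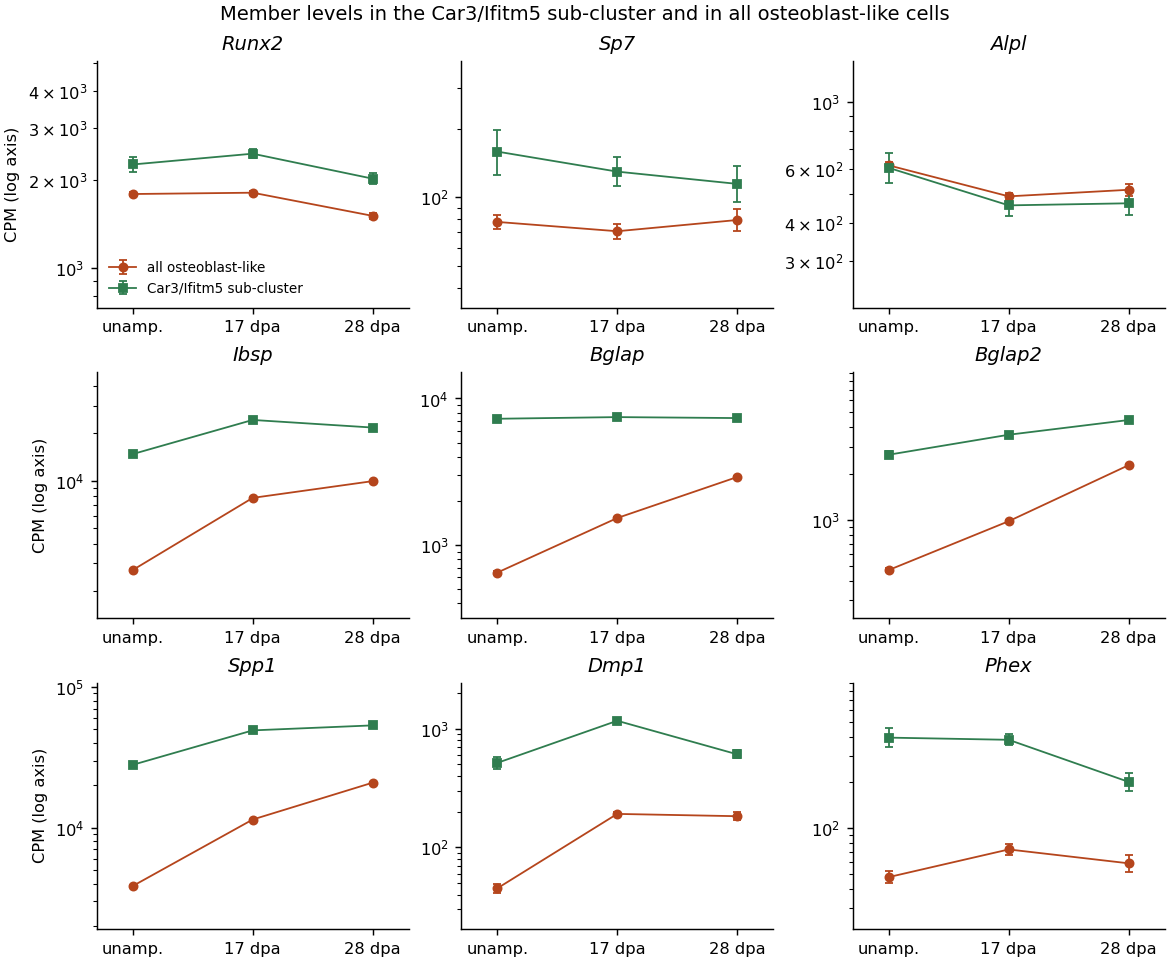
CPM (log axis) of the 9 genes in the unamputated, 17 and 28 dpa libraries in all osteoblast-like cells (red circles) and in the sub-cluster led by Car3 and Ifitm5 (green squares), with exact 95% Poisson intervals; 12 dpa had 0 cells in the sub-cluster. Bglap lies between 7271 and 7463 CPM in the sub-cluster in all 3 libraries, while over the whole class it goes from 648 to 2908 CPM.

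Other sub-clusters did differ between libraries. In the sub-cluster led by Chad and Cxcl1, Ibsp was at 131 CPM in 21 unamputated cells and at 2007 and 1762 CPM at 17 and 28 dpa (log2 ratios 3.93 and 3.74). Spp1 there was at 140, 932 and 971 CPM (2.73 and 2.79), and Phex went the other way, from 86.3 CPM to 4.23 CPM at 17 dpa. In the sub-cluster led by Timp1 and Tspan2, with 20 unamputated cells, the log2 ratios were 2.28 and 2.52 for Ibsp and 1.29 and 2.55 for Spp1, while those of Bglap were −1.80 and 0.33 and those of Dmp1 −4.85 and −1.61. Higher Ibsp and Spp1 were thus also seen within both. Higher osteocalcin was seen at 28 dpa in the first, where the log2 ratio of Bglap2 was 1.26, and at 17 dpa in the sub-cluster led by Limch1 and Hs3st5, where Bglap was at 1921 CPM against 554 CPM and Dmp1 at 122 against 40.2 CPM. In others the sum of Bglap and Bglap2 was lower at 17 dpa than in the unamputated library: 984 against 1471 CPM in the one led by Chad and Cxcl1, 1151 against 3400 CPM in that led by Timp1 and Tspan2, 322 against 1133 CPM in that led by Pdzrn4 and Ptn, and 34.9 against 151 CPM in that led by Clec3b and Sfrp2.

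Levels over all libraries showed that the sub-clusters carried different subsets of the genes. The sub-cluster led by Timp1 and Tspan2 (282 cells) was high in Ibsp, 12844 CPM, and Spp1, 14185 CPM, but had 38.8 CPM of Dmp1 and 1.11 CPM of Phex. Its Dmp1 differed between libraries: 216 CPM in 20 unamputated cells, 6.51 CPM at 17 dpa and 69.9 CPM at 28 dpa. The sub-cluster led by Limch1 and Hs3st5, which also carried Cxcl12, Lepr and Kitl among its leading genes (146 cells), had 9575 CPM of Spp1, 2857 CPM of Runx2 and 166 CPM of Phex, with 1789.9 CPM of Ibsp. In the sub-cluster led by Chad and Cxcl1 (365 cells), Spp1 was at 850.4 CPM and Dmp1 at 0.979 CPM. Its summed Ibsp of 2836 CPM lies above the 3 library levels given, because 2 cells of 12 dpa add 86.9% of that library's Ibsp UMIs. Runx2 was highest, 6586 CPM, in the 63 cells led by Gm26917 and Bmper, whose median depth of 4991 UMIs was the lowest of the 9 sub-clusters.

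The sub-clusters led by Clec3b and Sfrp2 (244 cells) and by Pdzrn4 and Ptn (168 cells) had little Spp1 in the unamputated library, 29.0 and 29.4 CPM, but 423 CPM at 28 dpa in the first (29 cells) and 362 CPM at 17 dpa in the second (22 cells). Ibsp was at 195 and 160.4 CPM in them, but in the first 659 of its 668 UMIs came from 17 dpa, where it was at 1209 CPM against 1.34 CPM in the unamputated library. Runx2, at 577 and 1773 CPM, and Alpl, at 314 and 466 CPM, were present in both. The first made up 25.2%, 65.1%, 6.30% and 5.12% of osteoblast-like cells from the unamputated to the 28 dpa library, and the second 26.0%, 25.4%, 2.77% and 0.353%, so both were less frequent at 17 and 28 dpa than in the unamputated library. A sub-cluster of 288 cells led by Ccn3 and Enpp2, with Prg4 among its leading genes, was also low in Ibsp (105 CPM) and had 908 CPM of Runx2. Spp1 there was at 58.9 CPM at 17 dpa but at 1545 CPM in its 33 cells at 28 dpa. Its share had another order, 2.44%, 0, 30.6% and 5.83%, highest at 17 dpa.

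A further sub-cluster, 91 cells led by the cell-cycle genes Hist1h1b and Mki67, came almost wholly from the unamputated library (85 cells, 17.3% of its osteoblast-like cells, against 0.378% at 17 dpa and 0.177% at 28 dpa). Since it is nearly all 1 library, it may be particular to that library. It had the highest median depth, 30075 UMIs, and the highest median doublet score of the 9. Its unamputated cells had 6287 CPM of Ibsp, 4157 CPM of Spp1 and 126 CPM of Sp7 but 14.3 CPM of Bglap. They held 63.1% of the unamputated class's Ibsp UMIs, 44.0% of Sp7 and 29.4% of Spp1, and 0.601% of Bglap. Without this sub-cluster the log2 ratio of Ibsp was 2.50 at 17 dpa and 2.85 at 28 dpa, that of Bglap 0.80 and 1.71, and that of Bglap2 0.62 and 1.82, so that 3 of 9 genes (Ibsp, Spp1 and Dmp1) were past 2-fold higher at 17 dpa and 5 at 28 dpa, where 1.33% and 2.84% of all genes were.

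**Figure D3:**
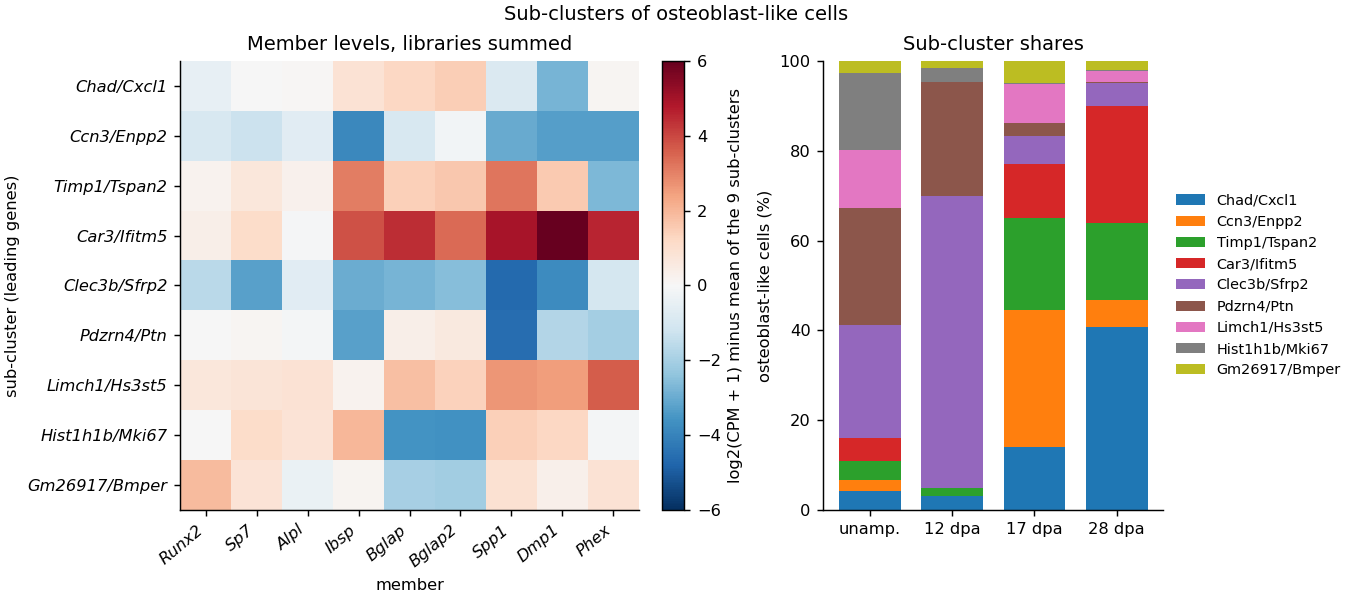
Left, level of each of the 9 genes in the 9 sub-clusters of osteoblast-like cells with libraries summed, as log2(CPM + 1) minus that gene's mean over the sub-clusters (color scale from −6 to 6). Right, share of each library's osteoblast-like cells in each sub-cluster (%); the sub-cluster led by Car3 and Ifitm5 makes up 5.28% of the unamputated bar and 26.0% of the 28 dpa bar.

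The division of the osteocalcin sum between its copies varied with the sub-cluster. In the sub-cluster led by Car3 and Ifitm5, Bglap made up 73.3% (72.0 to 74.5) of the sum in the unamputated library, 67.6% (66.9 to 68.3) at 17 dpa and 62.2% (61.4 to 63.1) at 28 dpa. In the sub-cluster led by Timp1 and Tspan2 it made up 46.9% (43.9 to 49.98), 39.7% (37.9 to 41.6) and 49.8% (48.1 to 51.6). Bglap was thus the larger part in the first in each of these libraries and the smaller part in the second at 17 dpa, while at 28 dpa the interval of the second includes an even split. Both values pass through the same counting of near-identical transcripts.

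Cells with several of the genes at once were counted after thinning. A Runx2 UMI together with one of Bglap or Bglap2 was found in 30.7% (26.7 to 35.0) of unamputated osteoblast-like cells. The shares at 12, 17 and 28 dpa were 1.59% (0.0402 to 8.53), 41.2% (37.8 to 44.8) and 60.9% (56.6 to 65.0). Ibsp, Spp1 and an osteocalcin together were found in 6.76%, 1.59%, 20.5% and 37.7%. The opposite pattern, Runx2 with none of Bglap, Bglap2, Ibsp or Spp1, was found in 27.9% (23.9 to 32.1), 42.9% (30.5 to 56.0), 22.6% (19.8 to 25.7) and 11.9% (9.29 to 14.9). Cells with all 3 matrix genes were thus most frequent at 28 dpa. Cells with Runx2 without them were least frequent at 28 dpa, and the intervals of the unamputated and 12 dpa libraries overlap. These shares come from 488, 63, 786 and 547 cells, after 4, 0, 8 and 19 shallower cells were left out, and without thinning Runx2 was seen in 99.0%, 95.2%, 95.1% and 93.6% of cells.

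**Figure D4:**
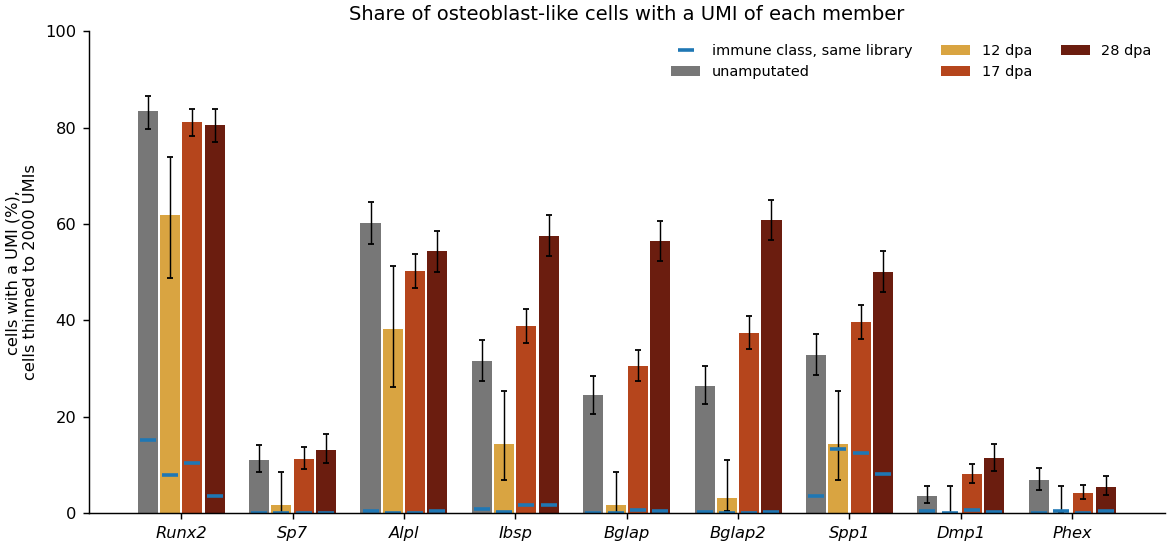
Share of osteoblast-like cells (%) with at least 1 UMI of each gene after thinning to 2000 UMIs per cell, in the 4 libraries, with 95% Clopper-Pearson intervals; blue dashes give the share in neutrophil-like (unamputated, 17 dpa) or macrophage-like (12 and 28 dpa) cells of the same library. Bglap2 goes from 26.4% in the unamputated library to 60.9% at 28 dpa, while Runx2 stays between 80.6% and 83.4% in the 3 libraries other than 12 dpa.

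Sequence upstream of the start was read for the genes whose levels stood apart at 17 and 28 dpa, because Runx factors bind a short core, ACCACA. Windows of 250 bases before a RefSeq transcript start (build GRCm38.p6) were found for 7 of the 9 genes, 10 windows in all; Sp7 and Bglap2 had none. The 6 letters, searched on both strands, occur in 4 of these 10 windows, 1 each of Bglap, Spp1, Dmp1 and Runx2, and in 4614 of all 32851 windows (14.0%). A match is a description of the letters and not a bound site. Capitals mark the match, and the window of Ibsp, shown for comparison, has none. The windows lie at chr5:104299037-104299286 (plus strand, Ibsp), chr3:88384467-88384716 (minus strand, Bglap), chr5:104434861-104435110 (plus strand, Spp1) and chr5:104202367-104202616 (plus strand, Dmp1).
Ibsp: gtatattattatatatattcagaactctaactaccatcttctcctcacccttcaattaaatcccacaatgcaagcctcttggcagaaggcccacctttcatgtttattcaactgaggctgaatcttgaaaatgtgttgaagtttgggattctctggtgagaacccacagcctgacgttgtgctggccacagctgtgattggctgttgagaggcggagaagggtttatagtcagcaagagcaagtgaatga
Bglap: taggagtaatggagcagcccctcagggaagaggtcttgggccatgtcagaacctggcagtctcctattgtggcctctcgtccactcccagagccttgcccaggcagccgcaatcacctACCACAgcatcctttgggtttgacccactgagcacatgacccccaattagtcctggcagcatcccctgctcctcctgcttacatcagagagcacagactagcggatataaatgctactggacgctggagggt
Spp1: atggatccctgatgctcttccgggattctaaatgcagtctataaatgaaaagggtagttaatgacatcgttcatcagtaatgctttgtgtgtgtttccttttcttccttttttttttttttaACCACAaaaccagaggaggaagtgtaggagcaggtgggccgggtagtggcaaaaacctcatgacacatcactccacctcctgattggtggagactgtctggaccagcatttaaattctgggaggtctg
Dmp1: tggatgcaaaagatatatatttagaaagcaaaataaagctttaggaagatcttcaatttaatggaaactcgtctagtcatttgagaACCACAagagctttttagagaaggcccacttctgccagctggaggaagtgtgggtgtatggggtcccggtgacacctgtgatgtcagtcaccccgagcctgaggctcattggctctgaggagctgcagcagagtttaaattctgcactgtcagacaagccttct
The first base of the match lies 132 bases before the start of Bglap, 128 before that of Spp1 and 164 before that of Dmp1, in the orientation of the gene in each.

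By the annotation (GENCODE M21 on GRCm38), Dmp1, Ibsp and Spp1 are neighbours on chromosome 5, within 238 kb at chr5:104202613-104441050. The osteocalcin copies Bglap3, Bglap2 and Bglap lie within 15.8 kb on chromosome 3, at chr3:88368616-88384464. Position did not go with like levels in every class: Dmp1 was abundant in smooth muscle-like cells, as given below, where the medians of Ibsp and Spp1 over libraries were 4.14 and 11.7 CPM.

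In the other mesenchymal cells all 9 genes were lower than in osteoblast-like cells of the same library, by more than 2-fold for 9 of 9 genes in the unamputated, 17 and 28 dpa libraries, where 5.64%, 5.94% and 7.93% of all genes were as much higher in osteoblast-like cells. At 12 dpa this held for 7 of 9, where 5.59% were: Spp1, at 151 CPM against 107 CPM, was within 2-fold, and Dmp1 had no UMI in either class. The count fell to 3 at a minimum of 50 CPM. Phex, whose 6 UMIs lay in 1 cell, turned to a log2 ratio of −0.97 without that cell, and with each cell named alone Phex turned to −0.97 and Bglap to −1.13. Ibsp was 167-fold higher in osteoblast-like cells in the unamputated library, 819-fold at 17 dpa and 779-fold at 28 dpa. Runx2 differed least, by 7.03-fold, 15.3-fold and 19.1-fold.

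Runx2 in the other mesenchymal cells was at 254 CPM (249 to 259.8) in the unamputated library, 215 CPM (209.7 to 219) at 12 dpa, 118 CPM (114 to 122) at 17 dpa and 78.6 CPM (75.4 to 81.9) at 28 dpa. Alpl was at 38.7 CPM (36.6 to 40.9), 43.8 CPM (41.6 to 46.0), 14.3 CPM (13.0 to 15.8) and 6.71 CPM (5.79 to 7.73). Both genes were lowest at 28 dpa. At 17 dpa these 2 were the only ones of the 9 past 2-fold, both lower than unamputated (log2 ratios −1.10 and −1.37), where 1.73% of 10731 genes were lower and 1.85% higher. Each of these calls was kept in 11 of 14 alternatives, and with each cell named alone both were lost. In this class 4 of the 9 genes reached 5 CPM in the comparisons of 12 and of 17 dpa, and 6 in that of 28 dpa. The other genes could not be called there, whatever their ratio. The make-up of the class moved too: fibroblast-like cells were 757 of its 1415 cells in the unamputated library, 383 of 2123 at 12 dpa, 1865 of 2194 at 17 dpa and 2446 of 2814 at 28 dpa. Runx2 had the same order within each kind of cell, 206, 109, 100.1 and 71.2 CPM in fibroblast-like cells and 295, 232, 191 and 123 CPM in tenocyte-like cells.

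Ibsp in these cells was at 16.3, 39.4, 9.52 and 12.8 CPM, and at 12 dpa it was the one gene of the 9 past 2-fold higher (log2 ratio 1.23), where 0.818% of 10641 genes were higher and 3.69% lower. With no doublets removed or with equal weight to cells, 0 of 9 genes were, and with each cell named alone the ratio turned to −0.57. Of its UMIs, 5 cells held 86.8% in the unamputated library and 66.5% at 12 dpa. At 28 dpa Runx2 and Alpl were past 2-fold lower (−1.68 and −2.36), and Bglap, Bglap2 and Spp1 higher (1.57, 1.82 and 2.77). At a Leiden resolution of 2, Spp1 turned to −0.21 and the count of 5 fell to 2. Of 10714 genes, 3.32% were higher and 5.66% lower. For Bglap and Bglap2 the levels were 7.13 and 8.97 CPM, against 2908 and 2268 CPM in osteoblast-like cells of that library, and the share of thinned cells with a UMI, 0.871% and 1.05%, stood beside 0.943% and 0.377% of vascular endothelial-like cells and 0.489% and 0.218% of macrophage-like cells. For Bglap the interval of 0.559 to 1.29% overlaps those of both, 0.307 to 2.19% and 0.224 to 0.927%. Spp1 was at 81.3, 107, 128 and 559 CPM. Tenocyte-like cells had 142, 121, 502 and 3716 CPM of Spp1 and 14959 of the 15826 UMIs at 28 dpa, while fibroblast-like cells had 8.74, 21.2, 38.2 and 35.7 CPM.

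Over 15 classes of cells, osteoblast-like cells had the highest median level over libraries for 8 of the 9 genes. Tenocyte-like cells were next for Sp7 (4.59 CPM against 74.3), Alpl (42.1 against 502), Ibsp (35.1 against 6406), Bglap (3.14 against 1087), Bglap2 (3.29 against 727) and Spp1 (322 against 7638). For Spp1 the ranges of the first and second class overlap, 151 to 20877 CPM and 121 to 3716 CPM, and the third, osteoclast-like cells, lies at 83.0 to 169.5 CPM. T or NK-like cells were next for Runx2, at 599, 503, 364 and 242 CPM from the unamputated to the 28 dpa library, all below the lowest osteoblast-like level of 642 CPM.

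Dmp1 was the exception. Smooth muscle-like cells were at 251 CPM (236 to 266) in the unamputated library, 192 CPM (164 to 223) at 12 dpa, 231 CPM (213 to 249.96) at 17 dpa and 304 CPM (283 to 325) at 28 dpa, above osteoblast-like cells in each. A Dmp1 UMI was found in 27.7%, 25.2%, 30.6% and 34.0% of thinned smooth muscle-like cells, against 0.291%, 0.136%, 0.199% and 0 of vascular endothelial-like cells. Pericyte-like cells had 25.4, 12.7, 24.7 and 24.6 CPM. In the osteoblast-like cells smooth muscle markers summed to 184, 94.2, 52.2 and 64.9 CPM. At 12 dpa 4 of the 6 markers (Myh11, Cnn1, Lmod1 and Actg2) were at 0. Their part in the Dmp1 level was not tested.

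**Figure D5:**
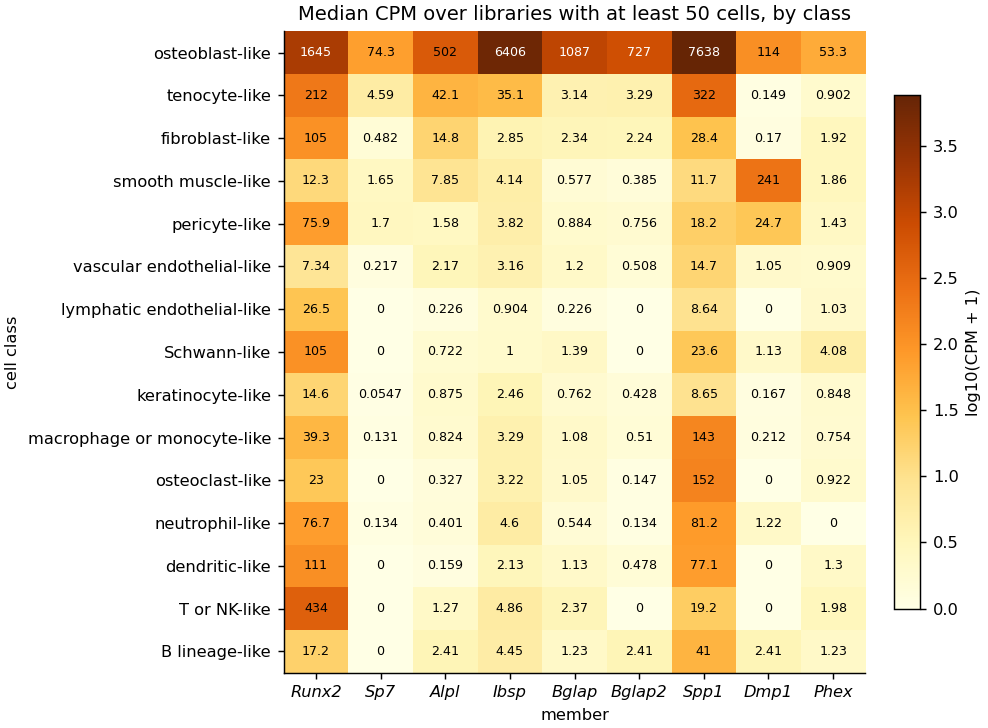
Median over libraries (those with at least 50 cells of the class) of the CPM of each of the 9 genes in 15 classes of cells; the color is log10(CPM + 1) and the printed number is the CPM. Osteoblast-like cells have the highest median for all genes except Dmp1, which is highest in smooth muscle-like cells (241 CPM against 114 CPM).

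Likeness of pattern was measured as Pearson's r of log2(CPM + 1) over 55 units (1 class in 1 library), which share libraries and differ in depth, among 8604 genes of at least 50 CPM in a unit, the 9 members left out. Spearman's rho was lower for all pairs named and is given after r. This is a description only. Runx2 was most like Tnfsf11 (0.83 and 0.76), followed by Mmp16 and Camk4 (r 0.74, rho 0.62 for both). Sp7 was most like Chad (0.88 and 0.52), Alpl like Ptgfr (0.89 and 0.75) and Ibsp like Mmp13 (0.89 and 0.55). Bglap and Bglap2 were most like Car3 (0.88 and 0.45 for both). Spp1 was most like Chad (0.72 and 0.33) and Phex like Col22a1 (0.78 and 0.45). Dmp1 was most like Susd5 (0.86 and 0.63), Sgca (0.85 and 0.50) and Kcnab1 (0.84 and 0.61), of which Kcnab1 leads the smooth muscle-like cluster. Among the 9 genes themselves, Bglap and Bglap2 were closest (r 0.94), Spp1 was closest to Bglap (0.77) and Ibsp to Bglap (0.89), and Runx2 and Dmp1 least alike (0.03).

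Other genes of bone were taken as 4 lists in osteoblast-like cells. Their counts are read against the shares of all genes past 2-fold, which were 3.14% higher and 9.21% lower at 12 dpa, 1.53% and 2.97% at 17 dpa, and 3% and 6.78% at 28 dpa. Of 16 transcription factors and regulators, 5 were past 2-fold lower at 12 dpa and 0 higher, 0 in either direction at 17 dpa, and 1 higher at 28 dpa. At 12 dpa Dlx6 was at 9.54 against 32.5 CPM, Tcf7 at 7.16 against 20.8 CPM and Zbtb16 at 1.19 against 11.9 CPM. These 12 dpa values rest on 8, 6 and 1 UMIs. Zbtb16 was the 1 gene higher at 28 dpa, at 29.7 CPM. The list's median log2 ratios were −0.64, 0.13 and 0.18.

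Of 20 genes of bone matrix and mineralization, 1 was past 2-fold higher and 3 lower at 12 dpa, 4 higher and 1 lower at 17 dpa, and 3 higher and 2 lower at 28 dpa. The counts at 12 dpa are near the shares of all genes. The pyrophosphate genes Ank and Enpp1 were at 87.9 and 86.1 CPM in unamputated cells and at 219 and 195 CPM at 17 dpa. Mgp, an inhibitor of mineralization, was at 899 CPM and at 2298 CPM at 17 dpa. At 28 dpa Ank was at 214 CPM and the kinase gene Fam20c at 40.6 CPM against 16.6 CPM, while the protease gene Mmp14 was at 469 CPM against 1186 CPM. The phosphate carrier gene Slc20a2 was at 65.3 CPM in unamputated cells and, in order of time after amputation, at 15.5, 51.6 and 15.7 CPM, past 2-fold lower at 28 dpa than at 17 dpa. Omd was at 103 CPM at 12 dpa against 253 CPM.

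Of 18 signal receptors and ligands, 0 were higher and 5 lower at 12 dpa, 2 higher and 1 lower at 17 dpa, and 2 higher and 2 lower at 28 dpa, where the last stands beside 6.78% of all genes. The receptor gene Lrp4 was at 17.9 CPM at 12 dpa against 167 CPM, Fgfr2 at 368 against 774 CPM and the cadherin gene Cdh11 at 716 against 1444 CPM. Bmp2, a ligand that promotes bone formation, was at 17.6 CPM in unamputated cells, 49.4 CPM at 17 dpa and 61.1 CPM at 28 dpa. Tnfrsf11b, the decoy receptor that restrains osteoclasts, was at 1.80, 13.0 and 18.5 CPM in these 3 libraries. Igf1 was at 421, 155 and 81.9 CPM, the reverse order.

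Of 10 osteocyte genes, 1, 2 and 1 were higher at 12, 17 and 28 dpa, and 0 were lower in each, where 3.14%, 1.53% and 3% of all genes were higher. Only 6, 6 and 5 of the 10 reached 5 CPM in these comparisons and could be called. Ptprz1 was at 29.4 CPM in unamputated cells, 116 CPM at 17 dpa and 216 CPM at 28 dpa. Dkk1, a Wnt inhibitor, was at 2.3 CPM, 8.35 CPM at 12 dpa (7 UMIs) and 6.08 CPM at 17 dpa. At 28 dpa Dkk1 was at 1.27 CPM (5 UMIs), past 2-fold lower than at 17 dpa.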

How the data were processed

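The labels describe 10x 3′ v3 libraries, 1 per group. Cell Ranger 7.1.0 and mm10 are named in the submitters' processing notes; filters are not given in the sources used here. The deposited matrices hold UMI counts per gene and barcode, unnormalized, per the file headers and values. No barcode was mapped to an animal, so cells were not treated as replicates.

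Cells were kept with at least 500 genes, 1000 UMIs and at most 10% mitochondrial UMIs. The barcodes with the highest simulated-doublet scores were removed, 0.8% per 1000 barcodes (7.05% to 12.8% per library). Cells were scaled to 10000 UMIs and clustered with scanpy 1.11.5 (2000 variable genes, 30 principal components, 15 neighbours, Leiden resolution 1, 27 clusters), without the 9 genes, the pathway lists, Y-linked genes, Xist or mitochondrial genes. A cluster took the class whose markers had the highest mean standardized level, if at least 3 were detected in 25% of its cells and no other class had more markers among its 10 leading genes. A cluster whose median depth was under 33.3% of its libraries' medians, with none of its class's markers among those genes, was not named. 2 clusters stayed unnamed. Osteoblast-like cells were clustered again at resolution 0.6. The naming rule, this step and 4 of the alternatives were chosen after seeing the data. The members and lists were chosen with earlier results of these data known.

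UMIs were summed per class and library and given as CPM of that class's UMIs. Log2 ratios used a pseudocount of 1 CPM, and a gene was called past 2-fold as the report states. The text names all 9 genes; from each list the 3 genes of highest CPM past 2-fold in each direction, at most; and for each member the 3 genes of highest likeness, or fewer. Sub-cluster levels needed 20 cells. Simulated counts were Poisson draws from the class sums, without spread between cells. The changed genes had at least 50 CPM in the unamputated class, a level that Dmp1 and Phex did not reach. At the depth of the 17 dpa comparison, 100 of 100 genes changed 3-fold were called over 10832 genes. At the depth of the 12 dpa comparison it was 98 of 100, and 2.64% of unchanged genes were called over 10766. These rates do not cover sums that rest on few cells. Alternatives covered cell filters, doublets, resolution, scaling, thresholds and cell naming. Gene positions came from GENCODE M21 (32235 of 32285 IDs found).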

Additional observations from a re-analysis of the deposited data

Results flagged for a closer look

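In 7 cases a named class other than the mesenchymal ones, with at least 50 cells, 10 UMIs of the gene and 5 CPM, held more of one of the 9 genes than osteoblast-like cells of the same library did, in cells that the comparisons of the report do not use. With 1 library per group none of these differences was tested. Dmp1 in smooth muscle-like cells was at 250.7, 192, 231 and 304 CPM from the unamputated to the latest library, against 45.2, 0, 191 and 183 CPM in osteoblast-like cells. The smooth muscle-like class was named from Myh11, Acta2, Tagln, Cnn1, Lmod1 and Actg2. The other 3 cases were all in the library labelled 12 dpa: Dmp1 in pericyte-like cells at 12.7 CPM against 0, Spp1 in macrophage or monocyte-like cells at 201 CPM and Spp1 in osteoclast-like cells at 161 CPM, both against 151 CPM.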

How the results depend on the processing

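Counts here are of genes past 2-fold in either direction. At 12 dpa in osteoblast-like cells the count of 7 was 4 (3 lower and 1 higher) within the sub-cluster led by Clec3b and Sfrp2 and within 1.5 times of 7 under the other alternatives that gave a value; Bglap and Bglap2 were past 2-fold in 16 of 16, Runx2 and Spp1 in 15. The 12 dpa cells held no cell of the sub-cluster led by Car3 and Ifitm5, so that alternative gave no value there. At 17 dpa the count of 5 genes was 3 with no doublets removed, 3 with equal weight to cells, 3 without the sub-cluster led by Hist1h1b and Mki67, and 1 within the sub-cluster led by Car3 and Ifitm5; Dmp1 was past 2-fold in 16 of 16 alternatives, Ibsp and Spp1 in 14, Bglap in 13 and Bglap2 in 11. At 28 dpa the count of 5 was 0 within the sub-cluster led by Car3 and Ifitm5, and Ibsp, Bglap, Bglap2 and Spp1 were past 2-fold in 15 of 16, and Dmp1 in 14. In other mesenchymal cells the count of 1 at 12 dpa was 0 with no doublets removed, 0 with equal weight to cells, 0 at a minimum of 50 CPM, 3 at Leiden resolution 2 and 4 with each cell named alone. The count of 2 at 17 dpa was 1 at resolution 2, 1 with equal weight, 1 at a minimum of 50 CPM and 0 with each cell named alone. The count of 5 at 28 dpa was 2 at resolution 2, 2 at a minimum of 50 CPM and 3 with each cell named alone. Between osteoblast-like and other mesenchymal cells at 12 dpa the count of 7 was 3 at a minimum of 50 CPM. Of 454 alternative values of the 31 ratios within 2-fold, 49 had another sign, among them Ibsp at 12 dpa in osteoblast-like cells (0.88, lowest −2.19). Of 860 values of the 59 ratios past 2-fold, 8 had another sign or were 0. They were Sp7 (0.89), Spp1 (0.36) and Dmp1 (0) at 12 dpa within the sub-cluster led by Clec3b and Sfrp2, Ibsp at 12 dpa in other mesenchymal cells with each cell named alone (−0.57), Spp1 at 28 dpa in other mesenchymal cells at resolution 2 (−0.21) and, between the 2 classes at 12 dpa, Bglap with each cell named alone (−1.13) and Phex both with each cell named alone (−0.97) and without its top cell (−0.97). The cause of these shifts was not tested.

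The share of osteoblast-like cells moved in every library. In the unamputated library 4.73% became 4.01% under the looser cell filter, 5.84% under the stricter, 2.56% at resolution 2, 1.42% with each cell named alone and 25.8% as a share of mesenchymal cells. At 12 dpa 0.968% became 0.659%, 1.47%, 0.138%, 0.338% and 2.88% in that order, and 0.677% with no doublets removed, 0.568% at resolution 0.5 and 0.553% with the 9 genes kept for clustering. At 17 dpa 10.0% became 12.1% under the stricter filter, 5.25% at resolution 2, 2.74% with each cell named alone and 26.6% of mesenchymal cells, and at 28 dpa 5.59% became 6.78%, 3.62%, 1.75% and 16.7%. 12 dpa was lowest in each of these settings and 17 dpa highest. As a share of mesenchymal cells, however, 17 dpa (26.6%) lay close to unamputated (25.8%). In that setting 28 dpa (16.7%) lay below unamputated, while over all cells it lay above (5.59% against 4.73%). No paired analysis was possible because each group has 1 library.

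The limits are the single library per group, the 63 osteoblast-like cells at 12 dpa, classes rebuilt from markers, and depth: 838541 UMIs at 12 dpa allow no level under 3.58 CPM to be told from 0.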

Other observations

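Cells of the blood lineage also held some of the 9 genes. In macrophage or monocyte-like cells Spp1 was at 179, 201, 107 and 73.0 CPM from the unamputated to the latest library, and in osteoclast-like cells at 144, 161, 83.0 and 169.5 CPM. Runx2 in dendritic-like cells was at 252, 67.7, 154 and 57.9 CPM. Among mesenchymal cells, Sp7 in tenocyte-like cells ranged from 1.85 to 18.1 CPM over libraries.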
